A study of Mus musculus with 6 samples.

Results

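A group of 7 mature mouse miRNAs, whose annotation is doubted, because their sequences may be pieces of abundant RNA such as ribosomal RNA (rRNA), was followed across 6 miRNA arrays of mouse lung. They were chosen by name, from a list of 10 miRNA numbers (miR-6236, miR-6238, miR-6239, miR-6240, miR-6538, miR-5105, miR-5109, miR-5115, miR-5126 and miR-2137). Of these, 7 had a probe among the 1963 mature miRNAs on the array, and miR-5105, miR-5109 and miR-5115 had none. Both mmu-miR-6238 and mmu-miR-6538 were also selected on measured values, namely their difference between WT-BLM and WT lungs in these same mice. That difference is therefore given as a description for these 2 miRNAs, with no test. The list of numbers was itself drawn up with earlier results of these data known, a limit on the tests of the other members too.

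The lungs came from wild-type (WT) C57Bl6 mice, aged 8 to 10 weeks per the methods, with 1 mouse per array. The 3 WT mice received saline into the trachea, and the 3 WT-BLM mice received bleomycin (BLM), an anticancer drug that injures the lung and causes fibrosis, at 1.5 U/kg by the same route. All lungs were taken at day 21. The whole lung was used, so that fewer cells of a type and less RNA per cell cannot be told apart. The methods call the mice littermates, and which mice shared a litter is not given in the sources used here.

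A miRNA is cut from the stem of a hairpin by the enzymes Drosha and Dicer, and it then pairs with messenger RNAs mainly through its seed, bases 2 to 8. Ribosomal RNA makes up most of the RNA of a cell, and its breakdown products can have the length of a miRNA. Deep sequencing counts such products, and some have entered the miRNA catalogue. The sequence of miR-6239 is close to the start of 5.8S rRNA and that of miR-6240 to a stretch of 28S rRNA. No full rRNA sequence was used here, so neither likeness was measured.

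The target sequences show how different the 7 miRNAs are from one another. They are written from the array's annotation with the seed in capitals, and all 7 equal the RefSeq entry of the same name in GRCm38.p6.
mmu-miR-6239: uAGCGUUGgaucacucggug
mmu-miR-6240: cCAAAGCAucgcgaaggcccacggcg
mmu-miR-6236: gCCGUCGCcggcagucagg
mmu-miR-2137: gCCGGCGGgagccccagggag
mmu-miR-6538: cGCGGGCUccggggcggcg
mmu-miR-5126: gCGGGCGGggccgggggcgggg
mmu-miR-6238: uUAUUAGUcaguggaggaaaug
No seed was shared among them, and among the other probes miR-6351 had the seed of miR-6239 and miR-330-3p that of miR-6240. The longest run that any pair had in common was 7 bases, between miR-5126 and miR-6538. The share of G and C was 100% in miR-5126, 94.7% in miR-6538, 85.7% in miR-2137, 78.9% in miR-6236, 69.2% in miR-6240, 55.0% in miR-6239 and 36.4% in miR-6238. The median over all 1963 probes was 52.2%, and only 0.509% of the probes reached the G and C share of miR-2137. Thus 4 of the 7 are far richer in G and C than most miRNAs on the array, and miR-6238 is poorer. No other tested probe had a run of 10 bases in common with any of the 7.

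The genes lie on separate chromosomes in GRCm38.p6. The mature sequences are at chr14:117953768-117953787 (minus strand, miR-6239), chr5:114851973-114851998 (plus, miR-6240), chr9:110281353-110281371 (plus, miR-6236), chrX:72992113-72992133 (plus, miR-2137), chr12:26414970-26414988 (minus, miR-6538), chr1:84695890-84695911 (plus, miR-5126) and chr7:53891796-53891817 (minus, miR-6238). In the RefSeq gene table they fall within the spans of Gpc6, Zfp185, Rnf144a and Dner, which code for proteins, for miR-6239, miR-2137, miR-6538 and miR-5126, and of the long non-coding Gm39429 for miR-6236. No other gene spans miR-6240 or miR-6238. Whether an exon or an intron is hit cannot be read from gene spans.

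A hairpin was listed for 5 of the 7, and these were folded with RNAfold beside all 990 listed mouse hairpins outside chromosome 18. The hairpins of miR-6238 and miR-6240 were long, at 129 and 117 bases, and weakly folded, with a minimum free energy of -0.21 kcal/mol per base in each. Of the 990 hairpins, 98.9% were at least as stable per base as that of miR-6238 and 98.7% as that of miR-6240, and the median was -0.41. The hairpin of miR-5126, rich in G and C, was among the most stable, with -0.63 kcal/mol per base. Those of miR-6538 and miR-2137 had -0.47 and -0.37. In the predicted folds the mature sequence was paired over 86.4% of its bases in miR-6238, 81.0% in miR-2137, 73.7% in miR-6538, 73.1% in miR-6240 and 68.2% in miR-5126, against a median of 81.0% over 1634 mature miRNAs. The mature miR-6238 was thus well paired within a hairpin that is weakly folded as a whole.

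Each probe was printed on 2 spots, and brightness is given as the mean intensity of both spots above the median of the 800 empty spots of that array. Detection on an array meant passing that median by more than 3 times the SD of the empty spots. The arrays of WT mouse 3 and WT-BLM mouse 1 were noisy, with an SD of the empty spots of 59.3 and 45.2 against 8.01 to 18.1 on the others, and the array of WT mouse 3 was also dim, with a median of the tested probes of 129 above the empty spots against 224 to 282. All 7 members were among the 275 probes detected on at least 3 arrays and tested. The number of detections was 33 of the 42 pairs of member and array. Both miR-6239 and miR-6240 were detected on all 6 arrays, miR-2137, miR-5126 and miR-6238 on all but that of WT mouse 3, and miR-6236 and miR-6538 on 1 of 3 WT and 2 of 3 WT-BLM arrays. Brightness depends on how well a probe binds as well as on the amount of RNA, so that levels of different probes are not compared.

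miR-6239, the 5.8S-like sequence, gave very bright spots. The intensity above the empty spots was 38937, 51293 and 7951 in WT mice 1, 2 and 3 and 46444, 30463 and 13236 in the same order in WT-BLM mice. One of its spots was the brightest of the whole array for WT mouse 2 and WT-BLM mouse 1. The level varied widely within both groups, and mouse 3 was the lowest in each. After quantile normalization between arrays the log2 intensity was 14.63 ± 0.97 (SD, n = 3) in WT and 14.32 ± 1.12 in WT-BLM lungs. Quantile normalization works by rank, and at the top ranks it gave WT mouse 2 and WT-BLM mouse 1 the same value of 15.36.

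The value of WT-BLM mouse 3 is the mean of spots that disagreed, of which the brighter was also below both other WT-BLM mice. They read 22745 and 3727 above the empty spots, a ratio of 6.10. The dimmer one was uneven, with a spread inside the spot of 51.3%, where all other spots of miR-6239 had between 1.70% and 7.19%. The authors' own normalized value for this mouse, 20400, lay near the bright spot and was the lowest of the WT-BLM mice, beside 52990 and 20722. In WT mouse 3 both spots were low, at 9435 and 6466, and so was the authors' value of 11043, beside 41010 and 37775 in the other WT mice. Over the 7 members, both spots lay within 2-fold of each other in 40 of 42 pairs. The other exception was miR-6238 in WT mouse 3, where one spot was at the level of the empty spots.

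**Figure D1:**
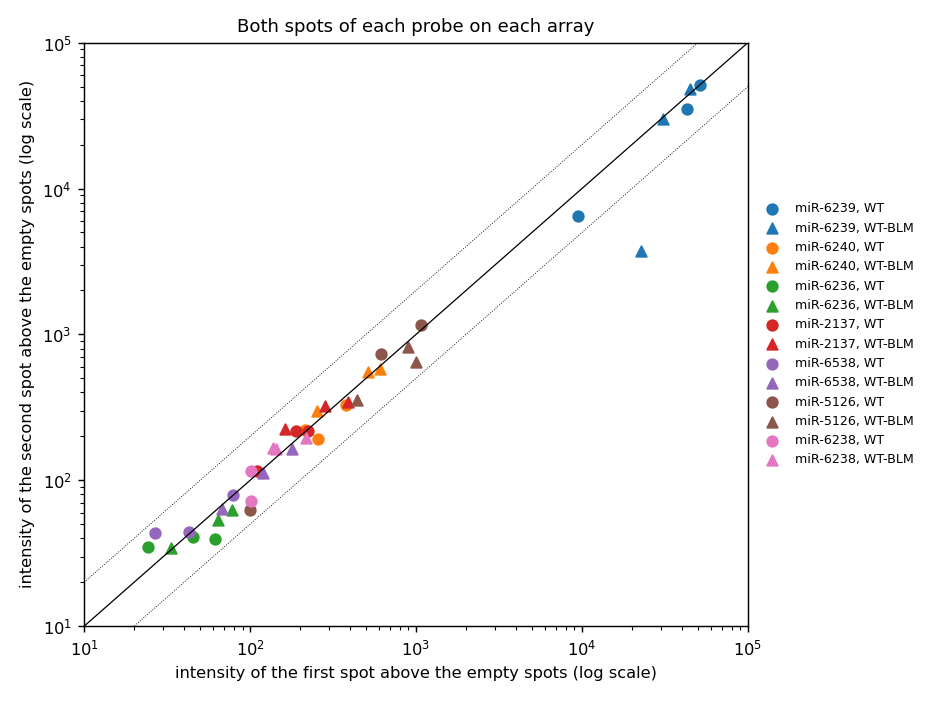
Intensity of the first spot of each probe (x axis, log scale) against that of the second (y axis, log scale), both above the median of the empty spots, for the 7 miRNAs on each array. Circles are WT and triangles WT-BLM mice, the solid line marks equal spots and the dotted lines a 2-fold difference. The triangle far below the lines is miR-6239 in WT-BLM mouse 3, and miR-6238 in WT mouse 3 is not drawn because one spot was not above the empty spots.

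miR-6239 did not separate the groups. WT-BLM over WT gave a log2 fold change of -0.32, with a standard error of 0.66 and, in limma, an adjusted p = 1, and its direction depended on single mice and spots. With arrays whose spots disagreed left out it was 0.28, on the authors' values 0.13, without WT-BLM mouse 3 it was 0.27 and without WT mouse 2 it was 0.043. On the authors' scale the level was 29943 ± 16447 (SD, n = 3) in WT and 31371 ± 18724 in WT-BLM lungs.

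miR-6240, the 28S-like sequence, was detected in every mouse. It stood at 354.9, 217 and 223.6 above the empty spots in WT mice 1, 2 and 3 and at 529.7, 596 and 276.8 in the same order in WT-BLM mice. WT-BLM mouse 3 lay inside the range of the WT mice, so the groups overlapped. The log2 intensity was 8.43 ± 0.42 (SD, n = 3) in WT and 8.97 ± 0.38 in WT-BLM lungs. The log2 fold change of 0.53 had a standard error of 0.31 and, in limma, an adjusted p = 1. The value was above 0 in every other setting and with any single mouse left out, between 0.28 and 0.74. On the authors' scale the level was 242.7 ± 77.8 in WT and 378.3 ± 125.5 in WT-BLM lungs (exact permutation test, two-sided p = 0.3).

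Of the sequences rich in G and C, miR-2137 was the one member not picked on its values whose groups did not overlap after normalization. Its intensity above the empty spots was 204.3, 220.3 and 112.4 in WT mice 1, 2 and 3 and 303.5, 367 and 192.9 in the same order in WT-BLM mice, where WT-BLM mouse 3 was below both WT mice 1 and 2. The separation thus appeared only after normalization (exact permutation p = 0.3 without it). After quantile normalization its log2 intensity was 7.99, 7.97 and 7.90 in WT mice 1, 2 and 3 and 8.52, 8.46 and 8.12 in the same order in WT-BLM mice. The WT mice were very close together and every WT-BLM mouse was above them, which is the most that 3 against 3 mice can show (exact permutation test, two-sided p = 0.1, the smallest possible). WT mouse 3 was under the detection limit. In limma the log2 fold change of 0.41 had a standard error of 0.21, an adjusted p = 1 and an unadjusted p = 0.094. On the authors' scale the levels were 161, 157 and 155 against 275, 235 and 173, again with no overlap. The groups stayed apart in 8 of 11 other settings with all mice, and the log2 fold change lay between 0.17 and 0.50 over these settings.

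miR-6538 was higher in WT-BLM lungs by the values that chose it. The probe was dim, at 79.0, 43.4 and 35 above the empty spots in WT mice 1, 2 and 3 and at 116.3, 171.8 and 65.8 in the same order in WT-BLM mice. On that scale WT mouse 1 exceeded WT-BLM mouse 3, and after quantile normalization the log2 intensities were 7.07, 6.81 and 6.90 against 7.42, 7.61 and 7.22, with no overlap. The log2 fold change of 0.49 had a standard error of 0.22, and it was 0.93 on the authors' values with a pseudocount of 1 and 0.21 with the arrays scaled to their 75th percentile. The groups were apart in 8 of 11 other settings with all mice, which reprocess the same arrays on which miR-6538 was picked and so are a description only. The authors' values were 69, 43 and 49 against 124, 115 and 72.

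miR-5126, made of G and C alone, varied widely among the WT mice. Its intensity above the empty spots was 1114, 677.8 and 81.7 in WT mice 1, 2 and 3 and 820.5, 857.5 and 399.9 in the same order in WT-BLM mice. The WT group therefore held both the highest and the lowest value. The log2 intensity was 8.99 ± 1.30 (SD, n = 3) in WT and 9.46 ± 0.43 in WT-BLM lungs. In limma the log2 fold change of 0.47 had a standard error of 0.61 and an adjusted p = 1. The direction rested on WT mouse 3, without which the value was -0.25. Without WT mouse 1 it was 1.07.

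miR-6236 stayed close to the detection limit, with overlapping groups and nearly equal means. Its intensity above the empty spots was 50.8, 29.7 and 43.0 for WT and 58.7, 70.0 and 34 for WT-BLM mice. The log2 intensities were 6.82 ± 0.22 (SD, n = 3) and 6.83 ± 0.08. In limma the log2 fold change of 0.0072 had a standard error of 0.22 and an adjusted p = 1. A change of the size seen for miR-2137 lies within about 2 standard errors of this value, so that a small change was not detectable.

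miR-6238, the only member poor in G and C, showed the largest difference of the 7, in the contrast that chose it. It stood at 86.8, 108.9 and 19.9 above the empty spots in WT mice 1, 2 and 3 and at 153.7, 206.2 and 151.8 in the same order in WT-BLM mice. Every WT-BLM mouse was above every WT mouse on this scale too, before any normalization between arrays. The log2 intensity was 7.03 ± 0.39 (SD, n = 3) in WT and 7.84 ± 0.10 in WT-BLM lungs. The difference of 0.80, or 1.75-fold, had a standard error of 0.26. The WT-BLM mice lay close together, and WT mouse 3, where the probe was not detected, was the lowest. Without WT mouse 3 the difference was 0.62. It was 0.43 with the arrays scaled to their 75th percentile, where the groups overlapped, and 1.36 on the authors' values with a pseudocount of 1. The groups were apart in 10 of 11 other settings with all mice. These settings reprocess the arrays on which miR-6238 was picked, so this count only describes the values that chose it. The authors' values were 78, 98 and 30 against 162, 140 and 179.

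Over the 275 tested probes, limma called no miRNA at an adjusted p under 0.05 (0%), and so none of the 5 members not picked on this contrast. At an unadjusted p under 0.05 there were 5 probes in limma, 9 in the paired test that the methods name and 7 in its form without pairing, with none in any of them after adjustment. Groups without overlap and higher in WT-BLM lungs were found for 11 of the 275 probes, or 4%, and for 3 of the 7 members, of which 2 had been picked on this contrast. Over all tested probes the split of 11 higher and 2 lower was 11 and 5 with cyclic loess, and it turned to 2 higher and 6 lower with the arrays scaled to their 75th percentile. Among the 5 members not picked on it, the number was 1. By direction alone, 6 of the 7 members were above 0, with a median log2 fold change of 0.47, and 155 of all 275 probes were, with a median of 0.044. These counts include the 2 picked for their difference. Of the 5 not picked on their values 4 were above 0, with a median of 0.41. The 3 other tested probes with at least 80% of G and C, a limit chosen after the values were seen, were above 0 as well, and the part of base composition was not tested.

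**Figure D2:**
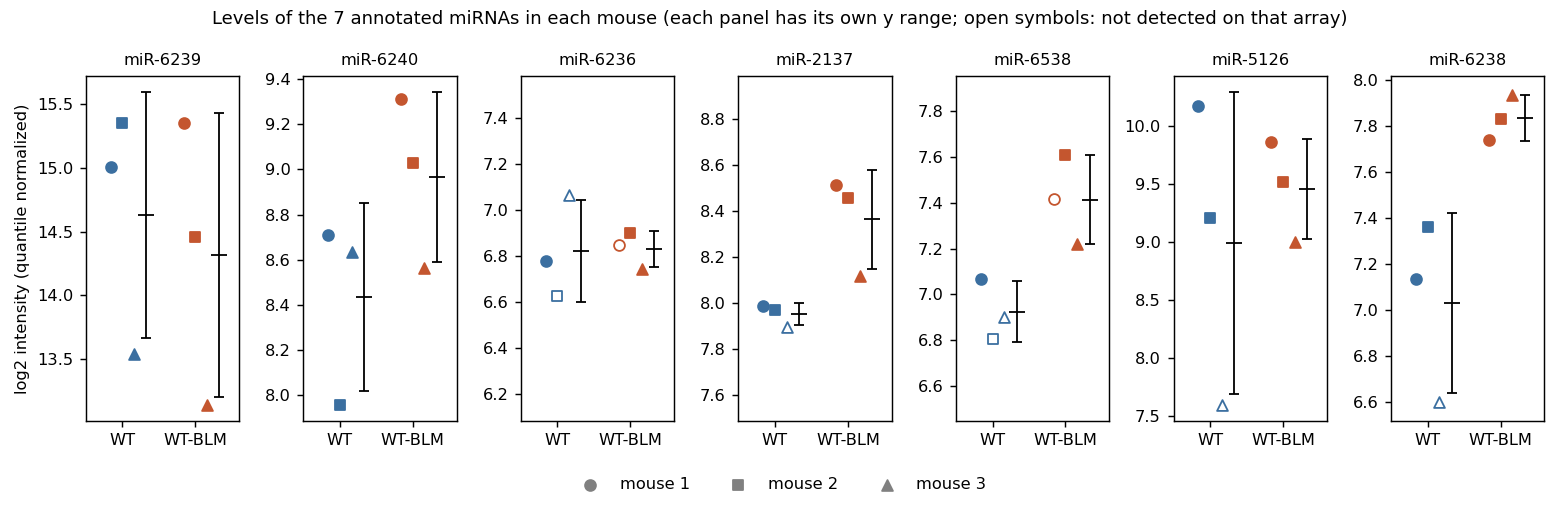
Log2 intensity after quantile normalization (y axis, a separate range in each panel) of the 7 miRNAs in each WT and WT-BLM mouse (x axis). Symbols mark mice 1, 2 and 3 of each group, open symbols arrays where the probe was not detected, and bars the mean ± SD of 3 mice. The groups do not overlap for miR-2137, miR-6538 and miR-6238, while miR-6239 and miR-5126 spread widely within a group.

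**Figure D3:**
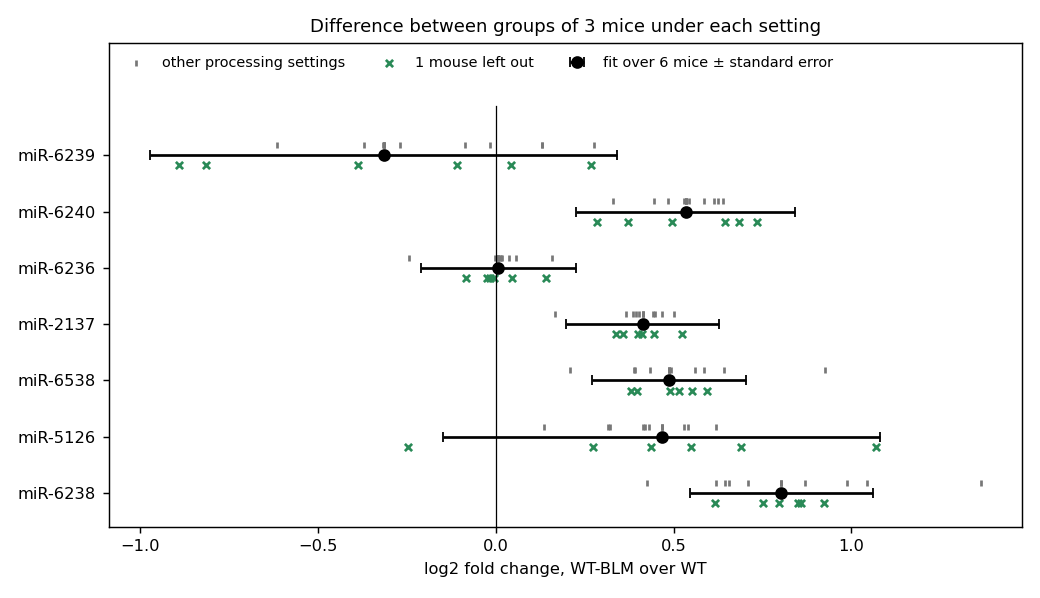
Log2 fold change of WT-BLM over WT (x axis) for each of the 7 miRNAs (y axis). Black points are the limma fit over 6 mice with its standard error, grey ticks the other processing settings and green crosses fits with 1 mouse left out. The values of miR-6238, miR-6538, miR-2137 and miR-6240 lie above 0 in every setting drawn, while those of miR-6239, miR-5126 and miR-6236 fall on both sides.

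With the arrays scaled to their 75th percentile, the median over all tested probes was -0.22 in place of 0.044 (log2 fold change). Relative to that median the members stood at 0.65 for miR-6238, 0.55 for miR-6240, 0.43 for miR-6538, 0.39 for miR-2137, 0.36 for miR-5126, -0.15 for miR-6239 and -0.025 for miR-6236. No member had groups apart under this scaling.

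The array also carries 5 control sequences of 5S rRNA, each on 4 spots, which measure a ribosomal RNA directly. They are shown because they give a ribosomal signal measured apart from the miRNA probes.
mmu-5S-b1: cgcgcccgaucucgucugaucu
mmu-5S-b2: cucggaagcuaagcagggucgg
mmu-5S-b3: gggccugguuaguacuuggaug
mmu-5S-b4: ugggagaccgccugggaauacc
mmu-5S-b5: gaauaccgggugcuguaggcuu
The longest run that any member had in common with these sequences was 6 bases, for miR-6239. All 5 were detected on all 6 arrays. They are control spots and are not reached by normalization of the miRNA spots, so they were set beside the members' log2 intensities as corrected for background but not normalized.

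The mean log2 intensity of the 5S sequences was 13.60, 13.52 and 12.65 in WT mice 1, 2 and 3 and 13.34, 13.42 and 13.11 in the same order in WT-BLM mice. The groups overlapped for each sequence. The difference of WT-BLM minus WT was 0.41 for b1, -0.075 for b2, -0.47 for b3, -0.097 for b4 and 0.40 for b5 (exact permutation test, two-sided p between 0.3 and 1). The sign thus varied among probes for stretches of one RNA, and none of these differences was beyond the spread of the mice. Some 5S sequences also had spots that disagreed. Those of b2 ranged from 2207 to 13773 above the empty spots in WT-BLM mouse 1 and from 4085 to 15924 in WT mouse 1. Those of b5 ranged from 12774 to 24609 in WT-BLM mouse 1. On this same scale the members ranged from -0.086 for miR-6239 to 0.71 for miR-6238.

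The arrays with a low mean of the 5S sequences were also those with low miR-6239. Both had their lowest values in WT mouse 3 and WT-BLM mouse 3, where miR-6239 stood at 12.95 and 13.18 against 14.90 to 15.65 in the others. The value of WT-BLM mouse 3 is the mean of the spots that disagreed, and the brighter one alone stood at 14.48. Across the 6 mice, Pearson's r with the mean of the 5S sequences was 0.88 for miR-6239 (exact permutation p = 0.017, adjusted p = 0.058 over 7 members; Spearman's rho 0.71, p = 0.14). For miR-5126 it was 0.97 (exact permutation p = 0.011, adjusted p = 0.058; rho 0.83, p = 0.058). Without WT mouse 3 and WT-BLM mouse 3, which lay farthest from the median of 5S, r was 0.028 for miR-6239 and 0.41 for miR-5126, so that both relations rest on these 2 mice. With the brighter spot of miR-6239 taken on each array, a choice made after seeing the data, r was 0.94 (exact permutation p = 0.014, adjusted p = 0.049) and 0.13 without the same 2 mice. The adjusted p of miR-5126 was then 0.049 too, since it is adjusted in the same family. The median of all tested miRNAs gave r = 0.90 over the same 6 mice (exact permutation p = 0.026), and the points share the brightness of each array. For the 5 other members r lay between -0.36 and 0.58, with adjusted p of 0.52 or more (exact permutation test). With the mean of both spots no relation had an adjusted p under 0.05.

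**Figure D4:**
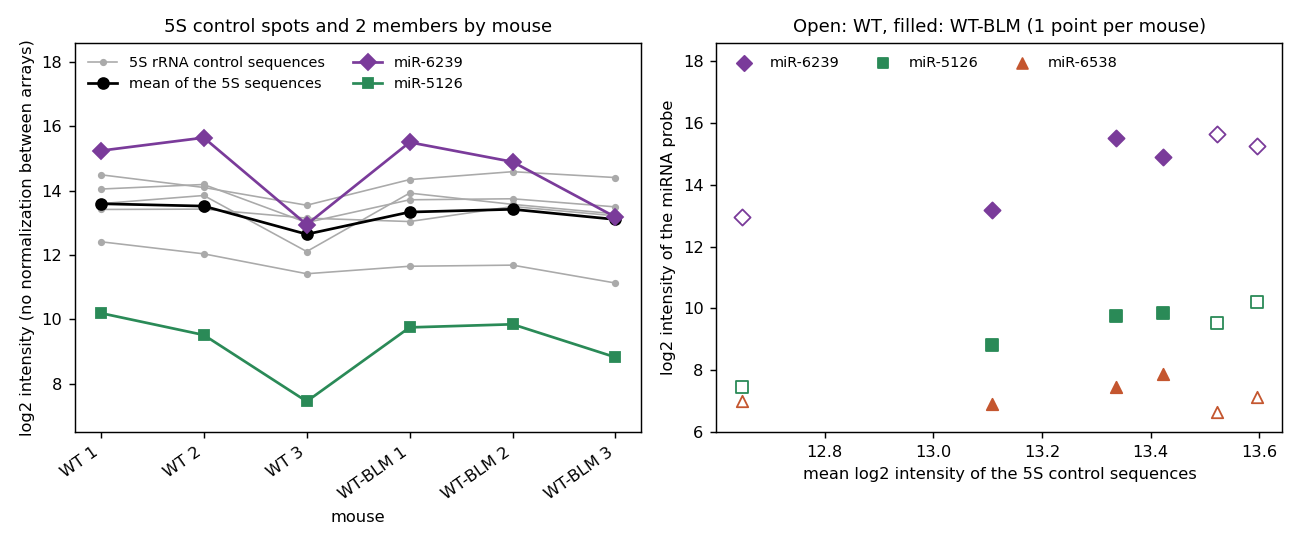
Left, log2 intensity without normalization between arrays (y axis) of the 5 5S rRNA control sequences, their mean, miR-6239 and miR-5126 in each mouse (x axis). Right, the mean of the 5S sequences (x axis) against the log2 intensity of miR-6239, miR-5126 and miR-6538 (y axis), 1 point per mouse. WT mouse 3 is the lowest for the mean of 5S, miR-6239 and miR-5126, but not for b2 and b3, whose lowest values are in WT-BLM mouse 1 and WT-BLM mouse 3.

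Correlations within groups were mostly above 0 but could not be told from 0 with so few mice. After the group means were removed, 15 of the 21 pairs had a correlation above 0, with a median r of 0.38, and without normalization between arrays 18 pairs had, with a median of 0.68. Without normalization the values also carry the brightness of each array. Pairs of other probes were not examined, and the 21 pairs share the same 7 probes. The lowest adjusted p was 0.39 with and 0.35 without normalization, and 0.29 on the authors' values (exact permutation within groups). For miR-6238 and miR-6538, the pair picked on the group difference, r of the deviations was -0.19 (exact permutation p = 0.78). For miR-2137 and miR-6538 it was 0.68 (exact permutation p = 0.36), and for miR-6240 and miR-6538 it was 0.69 (exact permutation p = 0.19). The lowest unadjusted p belonged to miR-2137 and miR-5126, with r of 0.50 (exact permutation p = 0.028, adjusted p = 0.39). Next came miR-2137 and miR-6239 with 0.84, and miR-6236 and miR-6238 with -0.97 (exact permutation p = 0.056, adjusted p = 0.39 for each). Only 36 within-group orders exist, so that 1 pair of the 21 with a low p by itself cannot reach an adjusted p under 0.58 (exact permutation within groups). The adjusted p of 0.39 was lower because it is shared by several pairs with a low p.

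The miRNAs whose levels most resembled those of the members were taken from the 274 other tested probes by Pearson's r over the 6 mice, after quantile normalization, as a description in which group differences are included. For miR-6538 they were miR-2137 (0.92), miR-6937-5p (0.88) and let-7f-5p (0.84). For miR-2137 they were miR-6937-5p (0.99), miR-6538 (0.92) and miR-1949 (0.89), and for miR-6240 they were miR-107-3p (0.88), miR-6538 (0.82) and miR-2137 (0.78). Thus miR-2137 and miR-6538 were on each other's lists, and both were on that of miR-6240. For miR-6238 the closest were miR-34b-5p (0.93), miR-375-3p (0.91) and let-7e-5p (0.91), none of them a member. The other lists likewise held no member, with miR-3970 (0.93), miR-690 (0.82) and miR-378b (0.81) for miR-6239, miR-152-3p (0.996), miR-705 (0.96) and miR-322-5p (0.96) for miR-5126, and miR-335-5p (0.89), miR-181a-5p (0.88) and miR-329-3p (0.86) for miR-6236.

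miRNAs with neighbouring numbers (miR-5097 to miR-5136, miR-6235 to miR-6244 and miR-6537 to miR-6546) were detected about as rarely as the probes of the whole array. Of 49 such probes 40 (81.6%) were detected on no array, against 74.5% of all probes, and 6 (12.2%) were tested, against 14%. Of these, miR-5100 (0.11) and miR-5112 (0.28) had a log2 fold change above 0 and miR-5099 (-0.61), miR-5107-5p (-0.058), miR-5113 (-0.23) and miR-5121 (-0.24) below, with adjusted p = 1 in limma for each.

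The labelled tissue was checked against miRNAs of its cell types. The epithelial miR-200 family members (5 of 5), the smooth muscle miR-143-3p and miR-145a-5p and the endothelial miR-126a-3p were detected on all 6 arrays, and the endothelial miR-126a-5p on 3. Of the markers of other tissues, liver miR-122-5p and brain miR-124-3p were detected on 1 array each, and muscle miR-1a-3p, miR-133a-3p and miR-208a-3p on 6, 5 and 3. White cell miRNAs (3 of 3) and red cell miR-451a were detected on all arrays, and red cell miR-144-3p and miR-486a-5p on 5 and 4. All tested markers had an adjusted p = 1 in limma, with log2 fold changes from -1.26 for miR-1a-3p to 0.76 for miR-126a-3p, and those of the white cell markers were 0.00076 for miR-223-3p, 0.21 for miR-142a-3p and 0.16 for miR-150-5p. Their part in the differences of the members was not tested.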

How the data were processed

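Lung RNA of 3 WT and 3 WT-BLM mice was hybridized to 6 one-dye arrays by an array service, and groups were taken from the sample titles. For each spot the authors deposited a median intensity and its spread, not yet corrected for background, and also a table of normalized linear intensities in whole numbers (2011 probes, method not given in the sources used here). Spot intensities were corrected by normexp (offset 50), control spots were removed, and log2 intensities were quantile normalized in R 4.3.3 with limma 3.58.1. Both spots were averaged. Probes that at least 3 arrays detected (275) went into lmFit and eBayes, and p-values were adjusted by Benjamini-Hochberg over all of them. The offset shrinks fold changes of dim probes. The members, lists and alternatives were chosen with earlier results of these data known. Named miRNAs are the members, the 3 closest tested probes of each by Pearson's r, tested probes with neighbouring numbers, 5S control sequences and cell type markers. Hairpins and coordinates are from RefSeq (GRCm38.p6), and folds from RNAfold 2.7.2. Detection, normalization and the limma fit were tested on simulated data, with planted changes larger than any seen for the members. The correlations and permutation tests were not simulated. Alternatives were other normalizations, offsets, filters, single spots, the authors' values on the log2(value + 50) and log2(value + 1) scales, the methods' t-tests, a replicate block and omission of each mouse. No slide or scan is named in the files, which leaves no batch to test. All 6 arrays of the series were used, and none is labelled as from the paper's IKBM mice.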

Additional observations from a re-analysis of the deposited data

How the results depend on the processing

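No probe had an adjusted p under 0.05 in any of the settings. The number of probes without overlap between groups, 13 of 275, was 8 with scaling to the 75th percentile, 7 with discordant spots left out, 170 of 1963 without a filter and 5 of 116 with probes detected on all 6 arrays, and 28 to 59 with 1 mouse left out, where fewer mice make overlap rarer. The log2 fold change of miR-6238, 0.80, was 0.43 with scaling to the 75th percentile and 1.36 on the authors' values with a pseudocount of 1, and 0.62 to 0.92 with 1 mouse left out. That of miR-6538, 0.49, was 0.21 and 0.93 in the same 2 settings and 0.38 to 0.59 with 1 mouse left out. That of miR-6239, -0.32, reversed to 0.28 with discordant spots left out and to 0.13 on the authors' values with either pseudocount, and lay between -0.89 and 0.27 with 1 mouse left out. It was above 0 without WT mouse 2 (0.043) and without WT-BLM mouse 3 (0.27). That of miR-6236, 0.0072, reversed to -0.25 with scaling to the 75th percentile and to -0.0019 on the second spot only, and lay between -0.084 and 0.14 with 1 mouse left out. That of miR-5126, 0.47, lay between -0.25 (without WT mouse 3) and 1.07. The cause was not tested. Those of miR-2137 and miR-6240 kept their direction throughout. The correlation of miR-6239 with 5S, 0.88 (exact permutation, adjusted p = 0.058), was 0.94 with the brighter spot of each array (adjusted p = 0.049), a setting added after seeing the data. The 33 detections among 42 pairs of member and array became 39 with a robust SD and 28 with 5 SD. The methods name a paired test but do not say which mice were paired. Deviations of mice of the same number had correlations of 0.16, 0.028 and 0.073 over the tested probes, which cannot decide whether they were paired. With the replicate block, which cannot move a fold change in this balanced design (0.80 for miR-6238), 0 probes were called, and the standard error of miR-6238 was 0.27 in place of 0.26. The standard error fell from 0.66 to 0.31 for miR-6239 and from 0.61 to 0.38 for miR-5126, for both of which mouse 3 was the lowest in each group. It rose slightly for miR-2137, miR-6236 and miR-6538 and fell slightly for miR-6240. Groups of 3 mice and the noise of the empty spots on 2 arrays limit what dim probes can show.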
